A study of Mus musculus with 5 samples.

Results

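High-mitochondrial epithelial barcodes of the fetal mouse lung were taken as droplet barcodes with at least 500 detected genes, more than 15% of their unique molecular identifiers (UMIs) from mitochondrial genes, and epithelial transcripts. The epithelial gate required at least 1 UMI of 2 or more of the 6 genes Epcam, Cdh1, Nkx2-1, Cldn7, Krt8 and Krt18. It also required 0 UMIs of the immune gene Ptprc, the endothelial genes Cdh5 and Pecam1 and the mesenchymal gene Pdgfra. Of the 50355 barcodes in the files, 24097 had at least 500 genes, and 1416 of these met the rule. The members were thus chosen by their measured mitochondrial share and by UMIs of the 10 gate genes, which are described without a test. The comparison class was the 2496 epithelial barcodes that passed the same gate at 15% or less, called low-mitochondrial below.

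The lungs came from 5 embryos at E18.5, each dissociated whole with collagenase and DNase, cleared of red blood cells by lysis, and loaded as 1 library of the 10x Genomics 3′ single-cell assay. Het1 and Het2 were Zswim8+/- and KO1, KO2 and KO3 were Zswim8-/-, so the control embryos carried 1 mutant copy and no wild-type embryo was included. Zswim8 encodes the substrate receptor of a ubiquitin ligase that acts in target-directed decay of microRNAs. How the allele was made is not given in the sources used here. Viability before loading was 64 to 81% over the 5 suspensions. Zswim8 gave 39 to 65 UMIs per library in the members, or 65.0, 54.2, 43.04, 50.1 and 54.7 CPM (counts per 1000000 non-mitochondrial UMIs). Here and below, 5 values follow the order Het1, Het2, KO1, KO2, KO3. Since the deleted part is not known here and the assay reads 3′ ends, these counts do not check the genotype labels. Xist, the X-inactivation transcript, stood at 1792 and 1774 CPM in KO1 and KO2 and at 1.68 or less in the other libraries. KO1 and KO2 thus read as female and the other 3 libraries as male, which ties sex in part to genotype. Across the libraries 269 of 50086 barcode sequences occurred more than once. Of the member sequences 18 were also present in another library, and 0 were members in 2 libraries.

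The distal lung epithelium holds flat alveolar type 1 (AT1) cells, through which gas is exchanged, and cuboidal alveolar type 2 (AT2) cells, which make and secrete surfactant. The conducting airways are lined mainly by secretory (club) cells, which release secretoglobins, and by multiciliated cells. Just before birth these fates are being established from Nkx2-1-positive progenitors. In droplet data a high share of mitochondrial UMIs is widely used to set barcodes aside, because mitochondrial transcripts stay inside organelles when cytoplasmic RNA leaves a damaged cell. Energy-demanding cells can also hold many mitochondrial transcripts.

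The members numbered 275, 204, 381, 288 and 268. Their median mitochondrial share was 24.8%, 28.04%, 37.3%, 33.2% and 26.7% in that order. Over all libraries 330 members lay between 15 and 20%, 386 between 20 and 30%, 399 between 30 and 50% and 301 above 50%. The members were shallow: the median was 1927 to 2393 non-mitochondrial UMIs per library, against 7155 to 13213 in low-mitochondrial barcodes, and 925 to 1144.5 genes against 2312 to 3426. Their median number of mitochondrial UMIs was 926 to 1657.5, against 486 to 1055. The members thus carried both fewer non-mitochondrial and more mitochondrial UMIs in each library. At the threshold, 218 barcodes just below it (13 to 15%) and 153 just above it (15 to 17%) overlapped in depth and in Ager. Their library medians were 3369 to 10200 and 3208 to 7526 non-mitochondrial UMIs, and Ager, an AT1 gene, stood at 1400 to 2353 and 1157 to 2570 CPM.

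Krt8 and Krt18 were detected in a mean of 71.5% and 69.0% of members, Nkx2-1 in 59.6%, Epcam in 53.9%, Cdh1 in 52.6% and Cldn7 in 49.4%. Members that passed on the 2 keratins alone made up 6.25 to 8.92% of a library. Of 20 epithelial genes outside the gate 1 rose (Esrp1) and 3 fell (Krt19, Krt7 and Id2) by the test described below. The share called was below the 27.6% over all genes tested. Krt19, a simple-epithelial keratin also made by mesothelium, stood at 688 ± 72.5 CPM in members and 856 ± 126 CPM in low-mitochondrial barcodes (edgeR adjusted p = 0.0143). The claudins Cldn18 and Cldn3 stood at 701 ± 38.3 and 580 ± 19.4 CPM (SD, n = 5) in members, against 738 and 551 in low-mitochondrial barcodes. Neither claudin passed the test. UMIs of at least 3 markers of an endothelial, mesenchymal, immune or mesothelial list, which mark mixed barcodes, were found in 11.3 to 22.8% of members and in 25.4 to 35.7% of the deeper low-mitochondrial barcodes.

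A larger part of the epithelial barcodes lay above 15% in the KO libraries. The share was 27.3% in Het1 and 26.5% in Het2, and 46.2% in KO1, 45.7% in KO2 and 39.3% in KO3, so the genotypes did not overlap. The Het mean was 26.9% (SD 0.596, n = 2) and the KO mean 43.7% (SD 3.87, n = 3). The difference of 16.8 percentage points had a two-sided exact permutation p of 0.1, the smallest that 2 against 3 libraries allow, and 0.133 after adjustment over 8 comparisons of shares. Exact 95% binomial intervals, which cover counting error only, ran from 23.4 to 30.2% over the Het and from 35.6 to 49.7% over the KO libraries. Above 50%, the counts were 30, 35, 112, 80 and 44 barcodes. These were 2.98% and 4.55% of the epithelial barcodes against 13.6%, 12.7% and 6.45% (exact p = 0.2).

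Other lineages gated in the same way did not follow this order. Among endothelial barcodes the share above 15% was 34.7% and 31.5% in Het and 26.6%, 24.1% and 25.9% in KO, lower in every KO library, with a difference of -7.57 points (exact p = 0.1). Mesenchymal barcodes were at 4.57 to 6.58% and immune barcodes at 5.68 to 11.2% in the 5 libraries, with overlapping genotypes. The epithelial minus endothelial share averaged -6.17 points over the Het libraries (SD 1.70, n = 2) and 18.2 over the KO libraries (SD 4.34, n = 3), and its genotype difference also had an exact p of 0.1. Viability is given only as a range over the 5 suspensions, so its part in these shares was not tested.

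**Figure D1:**
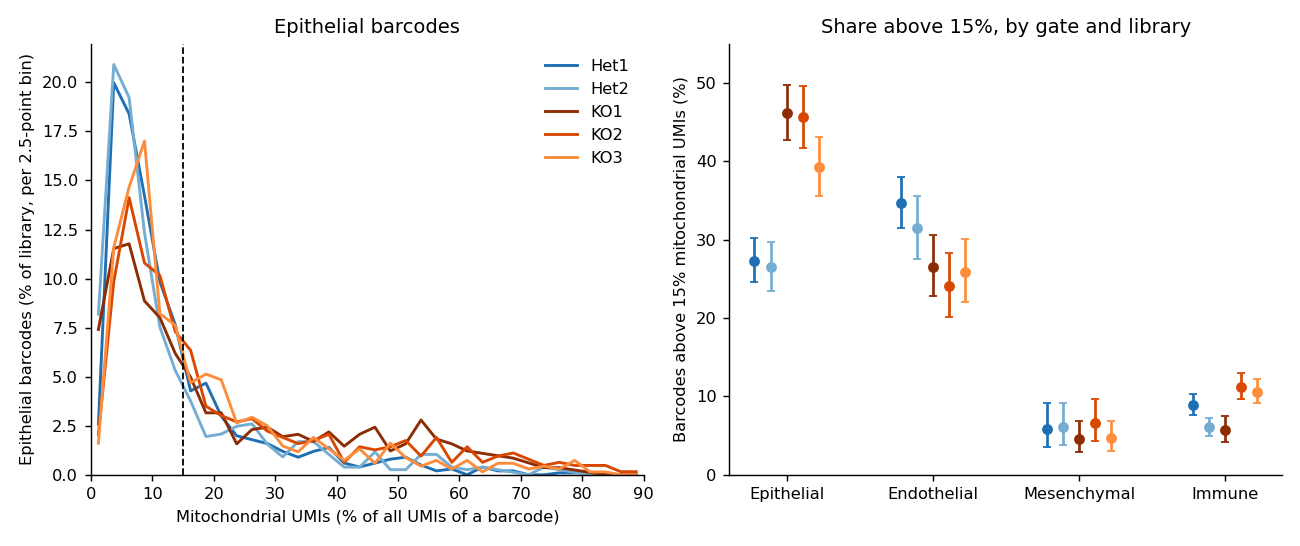
Left, distribution of the mitochondrial share over the epithelial barcodes of each library, in percent of the library's epithelial barcodes per bin, with the 15% threshold dashed. Right, percent of barcodes above 15% by gate and library, with exact 95% binomial intervals. The 3 KO libraries lie at 39.3 to 46.2% in the epithelial gate, above both Het libraries, and at 24.1 to 26.6% in the endothelial gate, below both.

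To ask which subtypes the members carried, each barcode was thinned to 2000 non-mitochondrial UMIs and called for the list, of 10 markers each, with the most markers detected. A call needed at least 2 markers and at least 1 more than any other list. Of the 1416 members 734 were deep enough, and 682 were left out. Of the low-mitochondrial barcodes 2057 were deep enough and 439 were left out. All 4 main subtypes were present among the members: 37.1% ± 8.51 (SD, n = 5) were called AT2, 28.2% ± 10.4 AT1, 15.01% ± 3.32 secretory and 9.96% ± 1.92 ciliated. None of the 734 was called neuroendocrine, which allows a share of up to 1.65 to 2.75% per library at 3 counts.

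The calls rest on closely spaced scores. Both AT1 and AT2 lists gave at least 2 markers in 45.8% of the thinned members and in 33.9% of low-mitochondrial barcodes. A lead of a single marker decided 118 of 661 calls in members, and 52 members had tied lists. Free RNA was read from immune-gated barcodes thinned in the same way: 1.42 to 2.68% of them were called AT1, 7.69 to 10.6% AT2, 1.27 to 3.03% secretory and at most 0.356% ciliated. The shares called among members were above these levels in every library. The immune gate left out barcodes with any UMI of Epcam or Cdh1, while members needed UMIs of epithelial genes. This order thus follows in part from the gates and does not set a level of free RNA.

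Ciliated calls were the most even difference between the classes. They made up 11.97%, 11.9%, 9.34%, 7.64% and 8.92% of members, against 8.18%, 4.94%, 7.14%, 7.58% and 4.85% of low-mitochondrial barcodes. The share was higher in members in 5 of 5 libraries, by 3.42 points on average, with KO2 the narrowest. The exact sign-flip p was 0.063, the smallest that 5 libraries allow, and 0.312 after adjustment over 5 subtypes. With low-mitochondrial barcodes matched to members on depth within each library before thinning, the means were 10.3% and 4.59%, again higher in 5 of 5. Matching also left out members without a partner of like depth, a larger part of the KO than of the Het members. Without thinning the sign was the opposite, at -0.543 points.

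For AT1 calls the difference between the classes had opposite signs in the 2 genotypes. In the 2 Het libraries they made up 35.9% and 41.3% of members and 35.8% and 37.4% of low-mitochondrial barcodes. In the 3 KO libraries they made up 17.03%, 19.4% and 27.4% of members and 24.4%, 33.6% and 32.3% of low-mitochondrial barcodes. The high minus low difference was 1.99 points in Het and -8.82 points in KO, and this contrast between genotypes had an exact p of 0.1 (adjusted 0.25). Over all 5 libraries AT1 calls differed by -4.50 points (exact sign-flip p = 0.25), and by -7.82 points, lower in members in 5 of 5 libraries, with depth matched (exact p = 0.063).

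AT2 calls were 31.0% and 29.4% of members in Het and 46.2%, 46.5% and 32.5% in KO. Against low-mitochondrial barcodes they were higher in KO1 and KO2 and lower in the other 3 libraries, a mean difference of 4.10 points (exact p = 0.5). With depth matched they were higher in 5 of 5 libraries, by 10.2 points (exact p = 0.063). Secretory calls were 15.01% in members against 10.5%, higher in 4 of 5 libraries (exact p = 0.188), and the classes were level, at 14.8% each, with depth matched. Among the members alone, the KO mean exceeded the Het mean by 11.6 points for AT2 and 4.87 for secretory calls. It was lower by 17.3 points for AT1 (38.6% ± 3.80 in Het, 21.3% ± 5.42 in KO) and by 3.32 for ciliated calls. The 2 genotypes did not overlap in any of the 4 subtypes. For AT1, secretory and ciliated calls the exact p was 0.1, adjusted 0.167, and for AT2 it was 0.2.

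**Figure D2:**
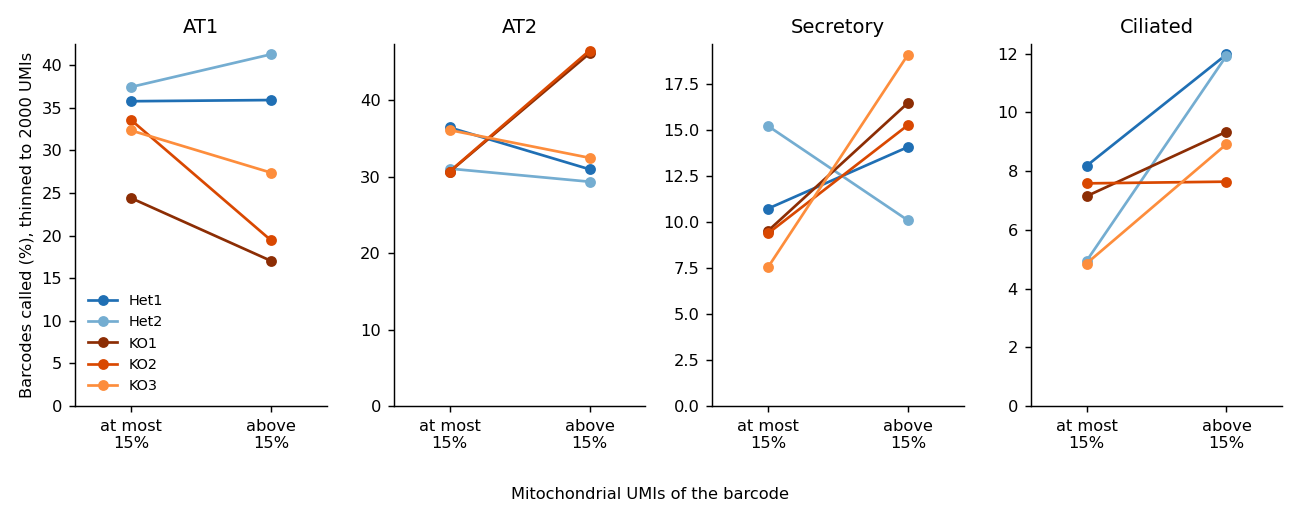
Percent of barcodes called for each subtype after thinning to 2000 non-mitochondrial UMIs, at most 15% (left point) and above 15% mitochondrial UMIs (right point), with 1 line per library. Ciliated calls are higher at the right end of all 5 lines, and AT1 calls are lower there in the 3 KO libraries but not in the 2 Het libraries.

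The members were not uniform along the mitochondrial share, and the 301 barcodes above 50% stood apart by their airway secretory transcripts. In those barcodes the 3 secretoglobins together reached 19672, 22105, 19217, 21265 and 31037 CPM. The low-mitochondrial barcodes had 14604, 12455, 5310.5, 5773 and 5265 CPM, so the classes did not overlap. The ratio was 2.85-fold in the geometric mean, higher in 5 of 5 libraries. Most of it was Scgb3a2, a secretoglobin of airway secretory cells and their progenitors, which stood at 17933 ± 4886 (SD, n = 5) above 50% and 5149 ± 2118 in low-mitochondrial barcodes. Scgb1a1, the main club-cell product, stood at 4156 ± 1840 and 3518 ± 2385. By library it was at 4280, 7264, 3131, 2617 and 3491 CPM above 50% and at 6627, 5563, 1988, 1757 and 1657 CPM in low-mitochondrial barcodes, higher above 50% in 4 of 5 libraries and lower in Het1. Red-cell barcodes had a secretoglobin level of 2626 CPM (SD 1133, haemoglobin left out). Their other UMIs hold the red cells' own RNA besides free RNA. Erythroid genes other than haemoglobin stood at 11716 CPM there and at 54.9 in members, so these barcodes give no clean level of free RNA.

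The secretory list, which holds no secretoglobin, was also higher above 50% in 5 of 5 libraries: 4347 against 2507 CPM, 1.83-fold. Alveolar transcripts were lower there. The surfactant proteins stood at 36738 ± 10707 CPM in low-mitochondrial barcodes and 16456 ± 3212 CPM above 50%, the AT1 list at 3543 and 1695 and the AT2 list at 4484 and 2586, each lower in 5 of 5 libraries without overlap. The AT1 list above 50% came near its level in red-cell barcodes, which was 1197 ± 220. Over the 10 measures compared in this way, exact sign-flip p was 0.063 for these 5, the smallest possible, and 0.125 after adjustment. Calls thinned to 1000 UMIs gave the same order for secretory and AT1. Above 50%, 36.6% of barcodes were called secretory and 5.86% AT1, against 13.8% and 30.2% of low-mitochondrial barcodes. AT2 calls were not lower above 50%, at 29.8% against 28.8%.

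Between 15 and 20% the order was the reverse for AT1. There 40.2% ± 12.1 of barcodes were called AT1 and 10.3% ± 4.19 secretory, and the AT1 list stood at 4260 CPM. From 30 to 50%, AT1 calls were at 19.7% and AT2 calls at 35.8%. Malat1, a long noncoding RNA of nuclear speckles, was at 23188 ± 2139 CPM in low-mitochondrial barcodes, 38349 at 15 to 20%, 44902 at 20 to 30% and 51275 at 30 to 50%. Above 50% it was at 30986 ± 15810, with KO1 at 15219, under its own low-mitochondrial level of 25512. The barcodes above 50% numbered 30 to 112 per library, so these levels rest on few barcodes in Het1 and Het2.

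**Figure D3:**
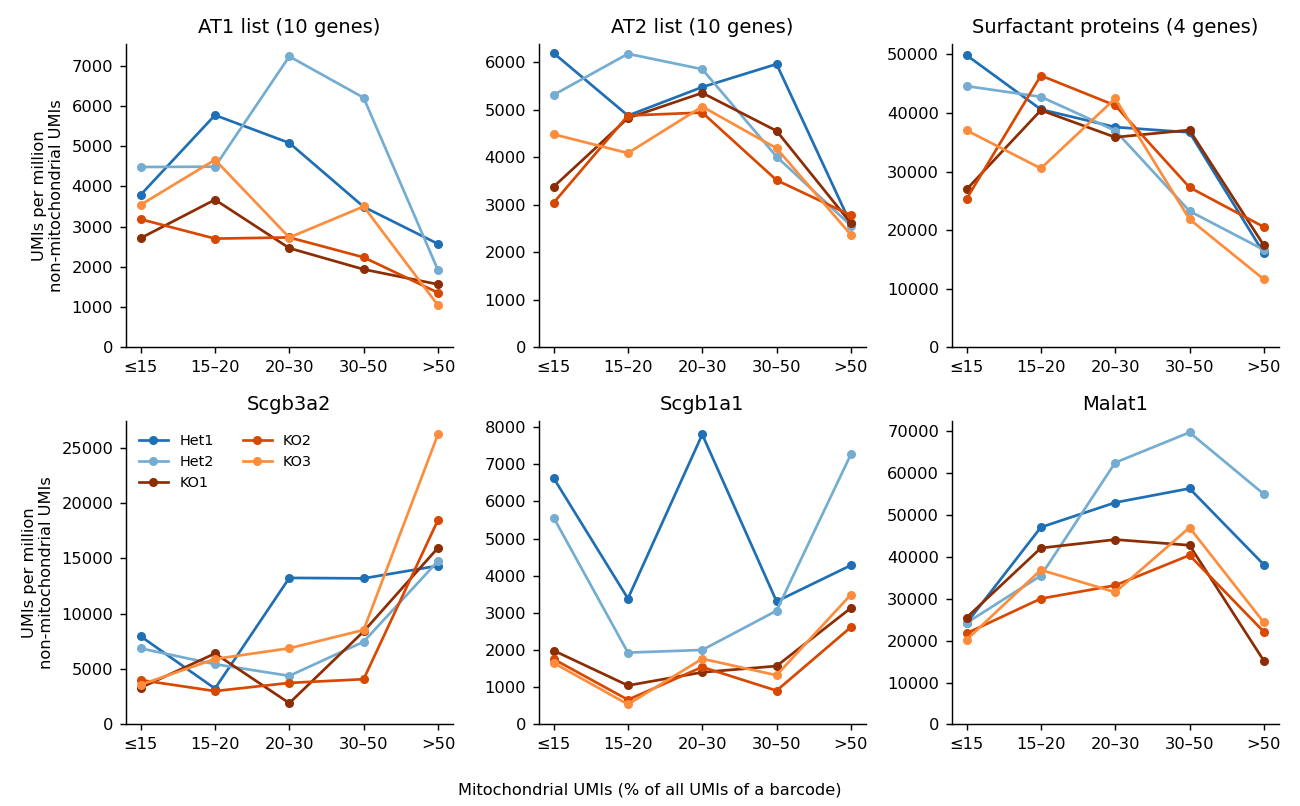
Summed level, in CPM of non-mitochondrial UMIs, of the AT1 list, the AT2 list, the 4 surfactant proteins and 3 single genes, by class of mitochondrial share, with 1 line per library. AT1, AT2 and surfactant levels are lowest above 50% in each library, while Scgb3a2 is highest there, at 14327 to 26188.

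Gene levels were compared between the members and the low-mitochondrial barcodes on UMIs summed per library and class, with the library as a block. Mitochondrial and gate genes were left out, and edgeR's quasi-likelihood test with Benjamini-Hochberg adjustment over 12468 genes was used. A lower summed level can come from fewer barcodes of a subtype or from less of the transcript per barcode, and these cannot be told apart here. At an adjusted p under 0.05, 3435 genes or 27.6% differed, 1698 higher (13.6%) and 1737 lower (13.9%), and the median log2 fold change over all genes was 0.02. Scaled by library size alone the median was 0.13 and 68.6% of the called genes were higher, in place of 49.4%, so directions below are relative to the TMM scaling of edgeR. Depth matching paired members and low-mitochondrial barcodes one to one, and left out members without a partner of like depth. It kept 265, 185, 250, 170 and 152 members, of 275, 204, 381, 288 and 268. A larger part of the KO than of the Het members was thus dropped, and results with depth matched cover the kept members alone. In that fit 1822 of 8831 genes were called.

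Cytoplasmic housekeeping transcripts were lower in the members. Of 78 genes for ribosomal proteins tested, 76 fell and 0 rose, with a median log2 fold change of -0.46. Of 84 nuclear genes for respiratory chain subunits, 58 fell and 0 rose, with a median of -0.32. Cox8a, a subunit of cytochrome c oxidase, fell from 941 ± 57.0 to 689 ± 66.8 CPM (SD, n = 5; adjusted p = 0.00246). The nuclear-encoded part of the chain was thus lower in the barcodes chosen for a high share of the mitochondrially encoded part. Both lists stayed low with depth matched, where 75 of 78 and 52 of 82 genes fell.

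Genes induced by stress and dissociation were lower too. Of 20 immediate early and heat shock genes, 17 fell and 0 rose, with a median of -0.70. Fos, a subunit of the AP-1 transcription factor, stood at 712, 823, 787, 626 and 509 CPM in members and at 1680, 1917, 1858, 1392 and 1540 CPM in low-mitochondrial barcodes. The classes did not overlap, as for 15% of all genes tested in either direction (log2 fold change -1.29 ± 0.09 SE, adjusted p = 8.54e-07). Jun, its partner, fell by 0.70 on the log2 scale. With depth matched the list had 11 lower and 1 higher of 19, and Jun was at -0.16 and not called. Lists of p53 and apoptosis genes (2 rose and 3 fell of 18 tested) and of the integrated stress and unfolded protein response (2 rose and 6 fell of 19) had calls in both directions, and the share called in the p53 list was near the 27.6% over all genes. Bax, which permeabilises the mitochondrial membrane in apoptosis, fell by 0.49 on the log2 scale, and Atf4, the effector of the integrated stress response, fell by 0.39. Hspa5, an endoplasmic reticulum chaperone, rose by 0.28.

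Transcripts listed as nuclear-retained were higher. All 10 long noncoding RNAs of that list rose, with a median of 0.90, and 8 of 10 with depth matched. The list includes Gm42418 and Gm26917, which lie at a copy of the ribosomal RNA unit (below), so their counts need not come from nuclear-retained RNA. Malat1 stood at 40276 ± 8600 CPM in members and 24340 ± 2702 in low-mitochondrial barcodes, without overlap (log2 fold change 0.71 ± 0.10 SE, adjusted p = 0.000275), but at 0.04 and not called with depth matched. Neat1, the scaffold of paraspeckles, rose by 0.41 and the imprinted RNA Meg3 by 0.54. Red-cell barcodes held this list at 156260 CPM against 79024 in members, and both sums include Gm42418 and Gm26917.

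Among the 10 largest rises were 3 noncoding genes from 1 place in the genome. Gm42418 (17:39846958-39848788, GRCm38) rose from 5439 ± 1769 to 26197 ± 6464 CPM, and AY036118 (17:39847113-39848035) lies inside it on the other strand. Gm26917 (17:39843013-39846341) ends just before it, and all 3 lie at a copy of the ribosomal RNA unit. Whether the counting used strand is not given in the sources used here, so the first pair may share reads. Lars2, the mitochondrial leucyl-tRNA synthetase (9:123366927-123462666), stood at 2208, 2900, 3075, 1758 and 1868 CPM in members and at 449, 458, 544, 290 and 325 CPM in low-mitochondrial barcodes. That was 5.72-fold (log2 fold change 2.52 ± 0.08 SE, adjusted p = 6.9e-10). With depth matched Lars2 was at 0.82 and Gm42418 at 0.47, both called, while AY036118 was at -0.07 and not called. Along the mitochondrial share the mean of Lars2 was higher in each successive class, from 393 CPM in low-mitochondrial barcodes to 5136 CPM above 50%.

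The other large rises included airway and blood transcripts. Muc5b, a gel-forming airway mucin, and Scgb3a1, a secretoglobin of mucous airway cells, led the list. Scgb3a1 was at 655, 90.9, 23.5, 23.7 and 107 CPM in members against 19.3, 25.05, 2.56, 6.44 and 20.8 CPM, a fold of 8.34 that leaned on Het1 (log2 fold change 3.06 ± 0.41 SE, adjusted p = 0.000211). It was found in only 2.43 to 6.37% of members. Muc5b rested on 67 UMIs in the Het members, 57 of them in Het1, and 48 in the KO members. Rgs22, a regulator of G-protein signalling, rose by 1.87 and by 2.28 with depth matched. Ctla2a, a cysteine protease inhibitor, rose by 2.08 and by 0.70 with depth matched. Gp9, of the platelet glycoprotein Ib complex, and Mrc1, a macrophage mannose receptor, rose by 1.87 and 1.83, but stood at 0.23 and -0.36 and were not called with depth matched.

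The largest falls were of genes of the pleural lining and connective tissue: Fndc1, Lgals7, Fbln2, Wt1, Tmem151a, Igfbp3, Rarres2, Ptgis, Mfap5 and Nkain4. Of 10 mesothelial markers 9 fell, with a median of -2.09, and of 10 mesenchymal markers 7 fell, with a median of -1.77. Wt1, a transcription factor of mesothelium, stood at 4.27 to 14.3 CPM in members and 16.9 to 81.2 CPM in low-mitochondrial barcodes. Mesothelial cells express keratins and can pass the gate, and barcodes with 3 mesothelial markers were 1.82 to 2.94% of members and 3.56 to 9.94% of low-mitochondrial barcodes. With all mixed barcodes left out of both classes, 6 of 7 mesenchymal markers tested rose (median 1.07), and Rarres2 rose by 1.59. That filter removes barcodes by UMIs of these same mesenchymal markers and takes out more low-mitochondrial barcodes, so the turned direction follows from its construction and is no result on these markers. The immune list (8 of 10 rose, median 0.97), endothelial list (4 of 8, median 0.76) and erythroid list (3 of 6) were higher in members. With depth matched none of these rose: 4 of 9, 1 of 5 and 5 of 5 fell. Their part in the other differences was not tested.

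Alveolar and airway markers were nearly level against all low-mitochondrial barcodes. The AT1 and ciliated markers separated with depth matched, and the secretory markers did not. Of 10 AT1 markers 1 fell, Hopx (575 ± 102 against 832 ± 147 CPM, adjusted p = 0.00243), and 0 rose, with a median of -0.04. With depth matched 10 of 10 fell, with a median of -0.60, and Ager, the receptor RAGE of AT1 cells, was at -0.44 in place of 0.14. Of 10 AT2 markers Abca3, the lamellar body lipid transporter, Lpcat1, a surfactant lipid enzyme, and Muc1 rose, and S100g fell. Only Abca3 (0.48) and Lpcat1 (0.49) of the 10 were called with depth matched. Abca3 stood at 446, 427, 399.5, 346 and 330.2 CPM in members and 357, 312, 267, 210 and 276 CPM in low-mitochondrial barcodes. It was higher in every library (log2 fold change 0.47 ± 0.08 SE, adjusted p = 0.00146), and at 0.09 and not called without mixed barcodes, where 6 of 10 AT2 markers fell. Of 10 ciliated markers all had positive values, and Cfap126 alone passed (median 0.31). With depth matched 10 of 10 rose, with a median of 0.99, and Dynlrb2, a dynein light chain, was at 0.92 (adjusted p = 0.000294). Of 9 secretory markers tested none passed, nor did any with depth matched. Sftpc, the AT2 surfactant protein, was at 32183 against 35419 CPM and did not pass, and Scgb1a1 fell in 5 of 5 libraries, from 3752 to 2243 CPM (adjusted p = 0.00111). At a 10% threshold Scgb1a1 was at 0.30 and not called, and it was detected in 49.97% of members against 44.9% of low-mitochondrial barcodes.

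**Figure D4:**
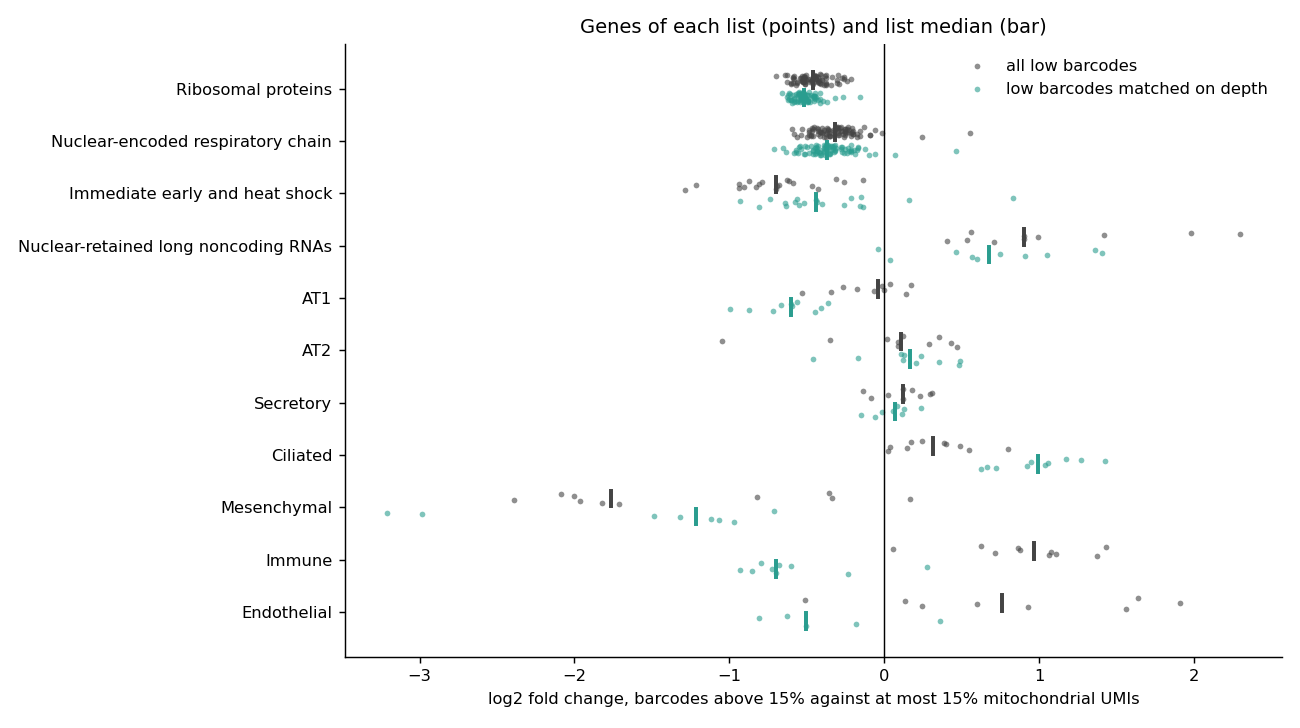
Log2 fold changes of members against low-mitochondrial barcodes for the genes of 11 lists (points) with the list median (bar). Grey sets all members against all low-mitochondrial barcodes, and green sets the members that had a depth-matched partner against those partners. The ribosomal, respiratory chain and immediate early medians lie below 0 in both. The AT1, immune and endothelial medians are lower, and the ciliated median higher, with depth matched.

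Of 20 hypoxia and glycolysis genes tested 9 fell, among them the hypoxia targets Car9 (log2 fold change -1.89) and Egln3 (-0.63) and the glycolytic enzymes Gapdh (log2 fold change -0.51), Ldha (-0.39) and Aldoa (-0.28). The 4 that rose were Vegfa, an angiogenic factor also made by AT1 cells, Slc2a1, a glucose transporter, Pdk1 and P4ha1. Vegfa stood at 504 against 337 CPM (adjusted p = 0.000384), and at -0.07 with depth matched, where none of the 4 was called and 8 of 17 genes fell. Of 20 genes of mitochondrial biogenesis and quality control, Mfn1, Nrf1, Polg and Ppargc1a rose and Bnip3l and Hspe1 fell, a share near the 27.6% called over all genes. Of the 4 rises only Nrf1 was called with depth matched. Of 12 cell cycle genes 5 fell and 0 rose, and 1 of 11 with depth matched.

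The mitochondrial transcripts themselves kept a similar make-up. Within the sum of the 13 mitochondrial messenger RNAs, mt-Co3, a cytochrome c oxidase subunit, made up 22.0% ± 1.20 (SD, n = 5) of members and 21.1% ± 1.44 of low-mitochondrial barcodes. mt-Atp6, of the ATP synthase, made up 19.99% and 18.4%, and mt-Co1 made up 11.5% and 12.9%. mt-Co2, mt-Co3, mt-Atp6, mt-Atp8 and mt-Nd6 took a higher part in 5 of 5 libraries, and mt-Co1, mt-Nd1, mt-Nd4 and mt-Cytb a lower part. The members were chosen by the sum of these same UMIs, so the parts are described without a test. Differences were at most 1.56 points.

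The genotypes were then compared within the members, over 2 Het and 3 KO libraries. The same edgeR test called 202 of 10365 genes (1.95%), of which 36 were higher (0.347%) and 166 lower (1.6%) in KO. AT1 markers were the clearest group. Of 10 tested 9 fell and 0 rose, with a median log2 fold change of -0.96. Aqp5, a water channel of AT1 cells, stood at 229, 234, 81.4, 57.1 and 80.3 CPM. The groups did not overlap, as for 32.4% of all genes tested (log2 fold change -1.67 ± 0.16 SE, adjusted p = 5.96e-05). Rtkn2, a marker of AT1 cells, stood at 122 and 114 against 37.3, 25.7 and 41.8 CPM (-1.75 ± 0.20 SE, adjusted p = 0.00023). Ager was at 2598 and 2480 CPM in Het and 1208, 1185 and 1614 CPM in KO (-0.93 ± 0.16 SE, adjusted p = 0.00555). Hopx, a homeodomain protein of AT1 cells, was at -0.34 and did not pass.

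With sex as a covariate 2 of 10 AT1 markers passed (Aqp5 and Rtkn2), the median was -0.73, and 35 genes were called in all. Without barcodes above 50% mitochondrial UMIs, which are more frequent in KO, 8 of 10 AT1 markers fell with a median of -0.94. The count of called genes was 47 without Het2, 119 without Het1, 105 without KO2, and 173 and 239 without KO1 and KO3.

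AT2 and surfactant genes showed no common direction between genotypes. Sftpc stood at 36580 and 32065 CPM in Het and at 33570, 36699 and 29975 CPM in KO, with overlapping groups (log2 fold change -0.04, adjusted p = 0.958). Sftpd, a surfactant collectin, fell by 0.92 and Slc34a2, the phosphate transporter of AT2 cells, by 0.58. Neither passed with sex as a covariate. Both lysozymes fell: Lyz2, made by AT2 cells and macrophages, stood at 798 and 743 CPM in Het and 208, 93.2 and 178 CPM in KO (-2.27 ± 0.22 SE, adjusted p = 5.96e-05). Its near-identical neighbour Lyz1 was at 589 and 913 against 115, 180.03 and 223 CPM, and reads between the pair can be split. The immune genes Tyrobp and Fcer1g were at -0.43 and -0.54 in KO and not called.

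Some airway genes were lower in KO members as well. Of 9 secretory markers tested 2 fell (Aldh1a1 and Cbr2) and 0 rose, with a median log2 fold change of -0.64. Cyp2f2 and Cldn10 were among those not called. Of the 9 tested, 8 had negative values. The share of members called secretory was higher in KO, by 4.87 points (exact permutation p = 0.1). That share depends on the calls of the other subtypes too, so it does not measure the level of airway transcripts. Of 10 ciliated markers 4 fell and 0 rose, with a median of -0.81. Foxj1, the master factor of motile cilia, stood at 207 and 223 CPM in Het and 71.7, 109 and 128 CPM in KO (adjusted p = 0.0073). Tmem212, a ciliated-cell membrane protein, stood at 157 and 211 against 75.4, 67.5 and 23.4 CPM. With sex as a covariate Foxj1 (adjusted p = 0.267) and Ccdc153 (0.113) did not pass, and DESeq2 did not call Tmem212 (0.236). Without Het2 none of the ciliated markers passed, and with a 20% mitochondrial threshold Foxj1 was at -0.41 (adjusted p = 0.545). Scgb1a1 stood at 5013 and 2606 against 1616, 1163 and 1372 CPM (-1.46 ± 0.22 SE, adjusted p = 0.00229, and 0.085 with sex as a covariate), and Scgb3a2 at 9000 and 6271 against 7082, 5068 and 8039 CPM, which overlap. Scgb3a1 fell by 2.90 but was at -0.84 and not called without Het1. Spink5, a serine protease inhibitor, fell from 126 and 130.02 to 31.3, 21.7 and 23.4 CPM (-2.32 ± 0.20 SE, adjusted p = 3.24e-05). The remaining named falls, the acute-phase gene Saa3 and Ccdc33, rested on 54 against 13 UMIs and 39 against 15 UMIs.

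The genes highest in KO members were Cxcl1, a neutrophil chemokine, Bcl11b, a zinc finger transcription factor, Mdk, the growth factor midkine, Tagln, an actin-binding protein of smooth muscle, and Col18a1, a basement membrane collagen. Mdk stood at 13.4 and 23.3 CPM in Het and 47.8, 97.2 and 87.8 CPM in KO (log2 fold change 2.10 ± 0.35 SE, adjusted p = 0.00454). Col18a1 stood at 35.8 and 39.7 against 127, 171 and 83.7 CPM (1.76 ± 0.28 SE, adjusted p = 0.00343). Cxcl1 rested on 5 UMIs in the Het and 80 in the KO members, and Bcl11b on 7 and 91. Tagln, a mesenchymal marker, was the single one of 9 mesenchymal markers that rose. Of these 5 only Mdk passed with sex as a covariate (2.28, adjusted p = 0.022).

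**Figure D5:**
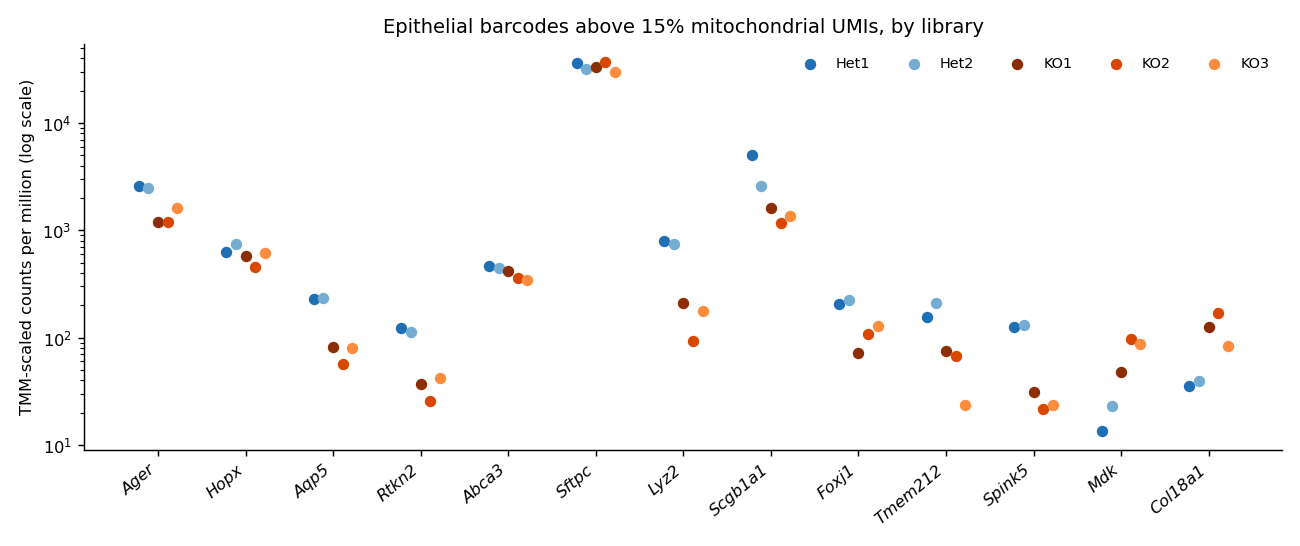
TMM-scaled CPM, on a log axis, of 13 genes in the members of each library (points, Het blue and KO orange). Ager, Aqp5, Rtkn2, Lyz2, Scgb1a1, Foxj1, Tmem212 and Spink5 are lower and Mdk and Col18a1 higher in all 3 KO libraries, while Sftpc overlaps.

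Several of these differences were present in low-mitochondrial barcodes of the same embryos too, where 24 of 14198 genes were called (0.169%), 3 higher (0.0211%) and 21 lower (0.148%), and 31.8% had groups that did not overlap. Among them Rtkn2 was at -1.37 (adjusted p = 0.0311), Scgb1a1 at -1.87 (0.0069), Scgb3a2 at -1.14 (0.025) and Sftpd at -1.46 (0.0458), as log2 fold changes with adjusted p. Aqp5 was at -0.98 there and did not pass. The test of the genotype difference itself between the classes, with the library as a block, called 0 of 13616 genes at an adjusted p under 0.05 (0%), while 30.9% had genotype groups that did not overlap. Before adjustment 907 genes had a p under 0.05, and DESeq2 called 2. No gene is therefore given as changed by genotype in the members alone. Scgb3a2, at -0.18 in members and -1.14 in low-mitochondrial barcodes, had an interaction of 0.94 ± 0.21 SE (adjusted p = 0.369).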

How the data were processed

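Each library is deposited as UMI counts of every gene in every barcode. Cell Ranger 4.0.0 made them, per the file headers, on build mm10 per the submitters' processing notes; strand and intron settings are not given in the sources used here. Library totals were 56608582 to 93708304 UMIs. The members and lists were picked with earlier results of these data known. Counts were summed per library and class without 13 mitochondrial and 10 gate genes and compared with edgeR 4.0.16 in R 4.3.3 (TMM, filterByExpr, two-sided quasi-likelihood test, Benjamini-Hochberg). Single-gene CPM are TMM-scaled. Lists are sums over non-mitochondrial UMIs, and next to red-cell barcodes (over 50% haemoglobin) also without haemoglobin. Of 32285 genes 32158 matched GENCODE M21 (GRCm38) by Ensembl ID. No doublet caller was run; mixed barcodes were left out as an alternative. The fits and calls were tested on simulated data. Between genotypes, each p-value measures the spread between embryos, 1 library each. Between classes, and for the genotype by class term, it measures the spread over embryos of the difference within an embryo.

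The text names, between classes, the 10 largest called changes each way with 1 direction in 5 libraries and at least 20 CPM in the higher class, and between genotypes the 5 largest each way without overlap. It adds Zswim8, the gate genes, the first 4 AT1, AT2, secretory and ciliated markers, surfactant proteins, secretoglobins and the 4 highest members of other lists. Further list members and the interaction of Scgb3a2 were singled out once their values were known. DESeq2 1.42.0, library size alone, other filters and thresholds, depth matching, a replicate block, sex as a covariate and leaving out each library served as alternatives.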

Additional observations from a re-analysis of the deposited data

Results flagged for a closer look

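The share of endothelial barcodes above 15% mitochondrial UMIs differed between genotypes by -7.57 points, lower in all 3 KO libraries, while the epithelial share was 16.8 points higher in all 3. The difference between the 2 lineages had an exact permutation p of 0.1, the smallest possible, and 0.133 adjusted.

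AT1 calls, as the members' share minus that of low-mitochondrial barcodes, differed between genotypes by -10.8 points. The values were 0.140 and 3.84 points in Het1 and Het2 and -7.37, -14.1 and -4.96 points in KO1, KO2 and KO3, with an exact p of 0.1, adjusted 0.25 over 5 subtypes.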

How the results depend on the processing

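Of the alternatives for the 5 main comparisons, 107 settings were counted as leaving a result in place and 22 as moving it. For shares and subtype calls only a change of sign counted as a move. Their exact p could not go below 0.063, so it never reached the threshold of a call. Values counted as in place still varied. The high minus low difference ran from -13.5 to -2.09 points for AT1, 1.17 to 10.2 for AT2 and 2.03 to 7.95 for secretory calls. For members against low-mitochondrial barcodes, DESeq2 called 2181 genes and depth matching 1822, in place of 3435, and leaving out a library gave 2446 to 2900. For genotype within members, in place of 202 genes, DESeq2 called 104, a 10% threshold 305, a 20% threshold 102, at least 1000 genes per barcode 131 and sex as a covariate 35, and leaving out a library gave 47 to 239. With replicate number as a block 653 genes were called. The 2 pairs of equal number correlated at 0.0076 and -0.0014. With 2 Het libraries such values mirror each other and cannot tell whether the numbers pair the embryos. No pairing is stated, so the main fit had no block. The share above 15% differed by 19.1 points within those pairs. For the genotype by class term, in place of 0, DESeq2 called 2, a filter of at least 10 UMIs 74, a 20% threshold 11 and mixed barcodes left out 30, with 0 to 17 when a library was left out. Without a library block the first fit called 2783 and the interaction 0. The high minus low difference in AT1 calls was 2.09 points at a 10% threshold, that in secretory calls was -0.00550 with depth matched, and that in ciliated calls -0.543 unthinned.

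Among single genes, members against low-mitochondrial barcodes, the log2 change turned for Mrc1 (-0.36), AY036118 (-0.0749) and Ager (-0.44) with depth matched. Without mixed barcodes it turned for Rarres2 (1.59), Ager (-0.29), Slc34a2 (-0.37) and Sftpb (-0.42), and at a 10% threshold for Rtkn2 (0.32) and Scgb1a1 (0.30). Sex as a covariate, the genotype fits without barcodes above 50% and the calls with depth matched were chosen after seeing the data. The cause of these shifts was not tested. Depth limits the subtype calls to 734 of 1416 members.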
